A study of Mus musculus with 29 samples.

Results

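The expression of 10 mouse mast cell genes was followed through RNA sequencing of skin of adult mice after deletion of Dlx3, which encodes a homeodomain protein active in upper epidermal layers and hair follicles. The 10 members were taken by symbol: the tryptases Tpsb2 and Tpsab1, the chymases Cma1 and Mcpt4, the carboxypeptidase Cpa3, the histidine decarboxylase Hdc, the IgE receptor chains Fcer1a and Ms4a2, and the Mas-related receptors Mrgprb1 and Mrgprb2. All 10 were found in each of the 3 deposited tables, among 24543 genes in day 3 epidermis, 24453 in day 3 dermis and 24081 at week 1.

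The mice were of mixed background, aged P42 to P46 per the series title. Deletion used a Cre recombinase under the keratin 14 promoter that is activated by tamoxifen, so the intended deletion (icKO) is in keratinocytes and not in mast cells, and the controls are called WT. In day 3 epidermis the vehicle arm had 4 libraries of each genotype, and the other arm had 3 WT and 4 icKO libraries after treatment with an inhibitor of STAT3 (STAT3i), a transcription factor activated by cytokine receptors, per the file headers. Dermis of day 3 had 3 libraries of each genotype. Week 1 epidermis (topical tamoxifen) and week 1 dermis (intraperitoneal tamoxifen) each had 2 libraries of each genotype, so tissue and route cannot be told apart at week 1 (the headers give the routes). Libraries are lettered a to d within a group, and the letters are names only. Levels are RPKM, reads per kilobase of transcript scaled to the mapped reads of the library, and tests were run on log2(RPKM + 1) with limma and Benjamini-Hochberg adjustment over all tested genes, with 0.05 as the threshold. Whether the libraries of a group are separate animals is not stated, so p values measure the spread between libraries.

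Mast cells are granule-filled immune cells that settle in connective tissue, in skin mostly in the dermis, and depend on the growth factor Kitl acting on its receptor Kit. Their granules hold histamine, made from histidine by Hdc, and serine proteases and a carboxypeptidase stored on heparin. Connective tissue mast cells of the mouse are marked by Cma1, Mcpt4, Cpa3 and Tpsb2, whereas mucosal mast cells carry Mcpt1 and Mcpt2. Degranulation follows cross-linking of IgE on the receptor built from Fcer1a, Ms4a2 and a shared gamma chain, or binding of cationic peptides to Mrgprb2.

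Depth was 48942701 to 70291550 alignments per library in day 3 epidermis, 10137237 to 37252138 alignments in day 3 dermis and 37271189 to 57296317 reads at week 1. The tissues were mixed at day 3: the skeletal muscle actin Acta1 stood at 2185 to 5355 RPKM in the 15 epidermis libraries, against 1.92 to 7.56 RPKM in week 1 epidermis. The fibroblast collagen Col1a1 was at 316 to 4482 RPKM in the same 15 libraries. It was at 359 to 1667 RPKM in day 3 dermis and at 1.64 to 25.3 RPKM in week 1 epidermis. The part of dermal tissue in the member levels of day 3 epidermis was not tested. Dlx3 itself was at 3.04, 0.95, 7.13 and 7.21 RPKM in vehicle-treated WT and at 1.496, 1.58, 2.22 and 1.29 RPKM in icKO epidermis, so the library labelled WT b went against its label. In day 3 dermis the libraries labelled icKO a and b held 64.3 and 65.9 RPKM of Dlx3, above all 3 WT libraries. Their 7 hair shaft genes summed to 6313 and 7581 RPKM, and WT library b also held 1774 RPKM of these with Dlx3 at 20.5 RPKM, against 3.28 to 9.72 RPKM in the other 3 libraries. The male transcript Ddx3y and the female transcript Xist were also spread unevenly: Ddx3y reached 1 RPKM in 3 of 4 WT and 1 of 4 icKO vehicle libraries, icKO library c held both, and under the inhibitor WT libraries held only Ddx3y and icKO libraries only Xist. In day 3 dermis Ddx3y was listed at 0 in 2 of 3 WT and all 3 icKO libraries, and reached 8.54 RPKM in WT. In week 1 dermis Xist was at 0.0643 and 10.7 RPKM in WT, against 0.0322 and 0.0493 RPKM in icKO.

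The members lie in small groups of related genes. Positions are those of GENCODE M21 (mm10). Tpsb2 (chr17:25366305-25369098, plus strand) and Tpsab1 (chr17:25343245-25345562, minus strand) are 20.7 kb apart, and Cma1 (chr14:55941451-55944675) and Mcpt4 (chr14:56059629-56062313), both on the minus strand, are 115 kb apart. Mrgprb1 (chr7:48444113-48456342) and Mrgprb2 (chr7:48550965-48558086), minus strand, are separated by 94.6 kb. The others are single: Cpa3 at chr3:20215620-20242181, Hdc at chr2:126593667-126619299, Fcer1a at chr1:173221284-173227214 and Ms4a2 at chr19:11615523-11623719, all minus strand.

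The related pairs are far from identical. The longest transcripts of Tpsb2 and Tpsab1 aligned over 401 bases with 81.5% identity and shared no exact run longer than 39 bases, and for Mrgprb1 and Mrgprb2 identity was 76.9% over 1800 bases with a longest run of 25 bases. No source used here gives how the authors' counting split reads between such genes, so the low values of Tpsab1 beside the high ones of Tpsb2 are uncertain. RefSeq lists Tpsab1 as a transcribed pseudogene in the reference assembly.

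The promoters of 4 genes are shown because these genes moved together or apart: Cpa3 and Mcpt4, which moved together, and the receptors Mrgprb1 and Mrgprb2, which did not. Each is the 250 bases before the transcript start from RefSeq (GRCm38.p6), 5′ to 3′ on the minus strand, with the letters GATAA or, on the other strand, TTATC in capitals. GATAA is a core that GATA factors bind, among them Gata2 of mast cells. The windows are chr3:20242182-20242431, chr14:56062311-56062560, chr7:48456343-48456592 and chr7:48558087-48558336.
Cpa3: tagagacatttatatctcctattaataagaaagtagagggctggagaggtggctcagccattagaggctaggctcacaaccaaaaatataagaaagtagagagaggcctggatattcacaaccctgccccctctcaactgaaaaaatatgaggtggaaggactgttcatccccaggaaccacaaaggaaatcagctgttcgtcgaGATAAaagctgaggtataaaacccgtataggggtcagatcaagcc
Mcpt4: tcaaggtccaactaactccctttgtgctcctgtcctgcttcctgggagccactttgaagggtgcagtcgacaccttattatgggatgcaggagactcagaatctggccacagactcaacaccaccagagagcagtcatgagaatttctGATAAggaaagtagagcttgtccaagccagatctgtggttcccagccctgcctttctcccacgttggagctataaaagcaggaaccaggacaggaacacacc
Mrgprb1: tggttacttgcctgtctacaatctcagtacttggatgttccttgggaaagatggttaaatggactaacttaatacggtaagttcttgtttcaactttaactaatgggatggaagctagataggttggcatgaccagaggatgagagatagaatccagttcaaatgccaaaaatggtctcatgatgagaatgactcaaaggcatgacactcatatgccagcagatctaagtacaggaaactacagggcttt
Mrgprb2: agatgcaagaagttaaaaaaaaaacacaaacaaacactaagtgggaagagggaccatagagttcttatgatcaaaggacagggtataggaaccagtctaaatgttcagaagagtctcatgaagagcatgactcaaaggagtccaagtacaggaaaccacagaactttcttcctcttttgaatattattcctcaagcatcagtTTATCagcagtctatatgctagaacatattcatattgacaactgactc

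Promoter sequences were matched for 8 of the 10 members, without Tpsb2 and Tpsab1. GATAA in either direction was in 6 of the 8, and 22.6% of 32851 promoter windows of the same length held it. The E-box letters CATGTG (either strand) were in 1 of the 8, Fcer1a, against 12.3% of windows, and CACGTG was in none of the 8, against 6.02% of windows. Mrgprb1 and Hdc held none of these letters in this window. A match is a description of letters and was not tested as a binding site.

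The proteases of connective tissue mast cells led the levels in vehicle-treated WT epidermis. Mcpt4, a chymase, was highest at 34.1 ± 4.49 RPKM (SD, n = 4). Cma1, another chymase, at 18.98 ± 3.04, Cpa3 at 16.95 ± 2.60 and the tryptase Tpsb2 at 15.8 ± 2.51 RPKM (SD, n = 4 each) followed. The ranges of these 3 overlapped and they were not tested against each other, though Cma1 was above Cpa3 in each of the 4 libraries. Then came the receptor Mrgprb2 at 4.83 ± 2.38, Hdc at 2.27 ± 0.792 and Mrgprb1 at 1.51 ± 0.197 RPKM, the first of which overlapped the second. The IgE receptor beta chain Ms4a2 was at 0.712 ± 0.0686 RPKM and Tpsab1 at 0.399 ± 0.104 RPKM. Fcer1a, the chain that binds IgE, was listed at 0 in all 4 libraries. The summed level of the mucosal markers did not exceed 0.354 RPKM in any library of the series.

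The order of the 4 abundant proteases began with Mcpt4 in all 15 day 3 epidermis libraries. Of their summed RPKM, Mcpt4 made up 36.1 to 45.1%, Cma1 19.96 to 23.1%, Cpa3 16.9 to 22.99% and Tpsb2 12.7 to 21.7% over the 15 libraries. The sum was 101, 85.0, 83.03 and 73.9 RPKM in the vehicle-treated WT libraries and 149, 142, 129 and 140 RPKM in the icKO libraries. All 4 icKO libraries were above all 4 WT libraries.

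**Figure D1:**
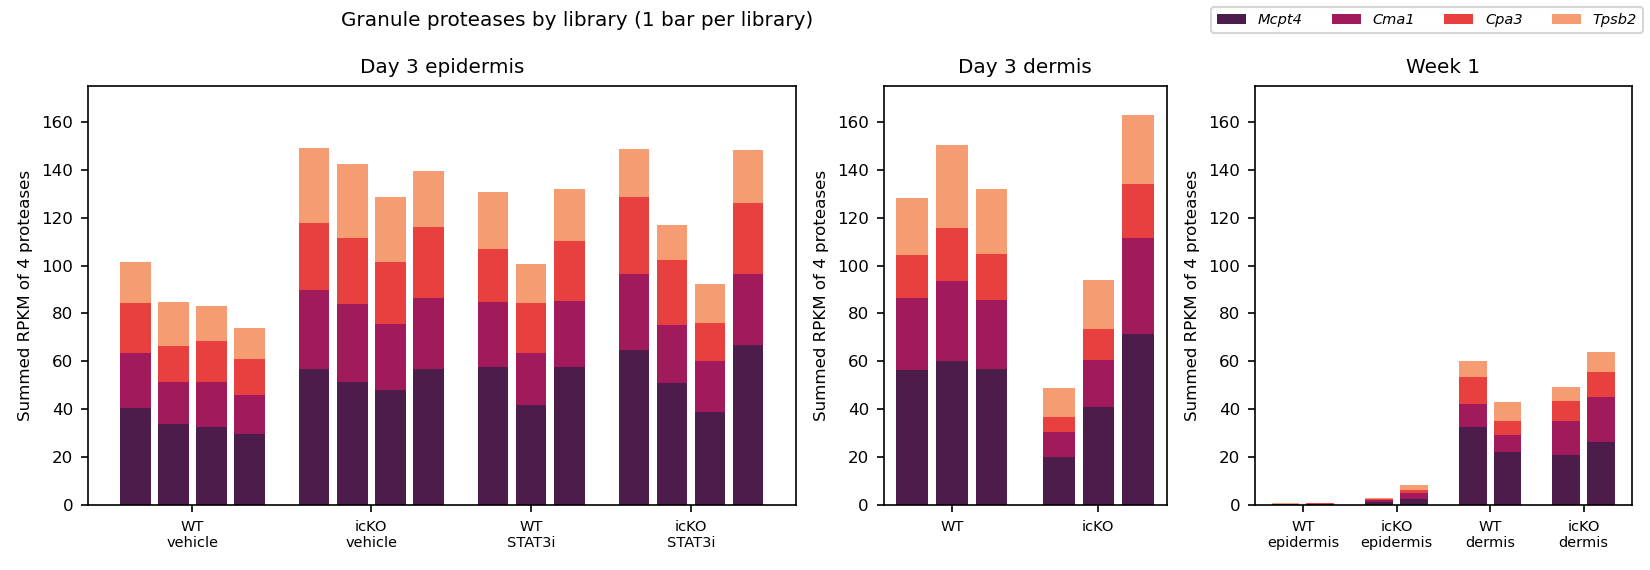
Summed RPKM of the proteases Mcpt4, Cma1, Cpa3 and Tpsb2 (y axis, linear), 1 bar per library, grouped on the x axis by genotype, treatment and tissue in the 3 tables, which were normalized separately. In vehicle-treated day 3 epidermis the icKO bars (129 to 149 RPKM) all stand above the WT bars (73.9 to 101 RPKM), and the WT bars of week 1 epidermis stay under 1 RPKM.

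At day 3, vehicle-treated epidermis labelled icKO held higher levels of most mast cell genes than that labelled WT. Of the 10 members, 7 passed the filter of 1 RPKM in at least 4 libraries; 6 rose, and 1, Mrgprb2, fell. In 6 of the 7 tested members, those that rose, every icKO library was above every WT library, as in 7.86% of tested genes. The same held for Fcer1a, which was not tested. Over all 13095 tested genes 12.8% passed the threshold, 9.12% as higher and 3.7% as lower. The median log2 change was 0.67 over the 7 members and 0.04 over all tested genes. Tpsab1, Ms4a2 and Fcer1a were below the filter. Since the libraries are of bulk tissue, more mast cells and more RNA per mast cell cannot be told apart.

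Tpsb2, a tryptase, was at 17.2, 18.4, 14.5 and 12.9 RPKM in WT, against 31.4, 30.7, 26.9 and 23.5 RPKM in icKO libraries. The groups did not overlap, and the level rose by 0.80 ± 0.15 (log2 change ± SE, adjusted p = 0.00745, limma). Tpsab1, its neighbour, stayed low, at 0.264 to 0.497 RPKM in WT, against 0.404 to 0.912 RPKM in icKO, with overlapping groups. The authors' deposited table gave Tpsab1 a ratio of icKO to WT of 1.53 with an unadjusted p of 0.0236.

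Cma1, a chymase, was at 23.2, 17.6, 19.03 and 16.1 RPKM in WT, against 33.0, 32.7, 27.3 and 29.5 RPKM in icKO. It rose by 0.67 ± 0.13 (adjusted p = 0.00914, limma), again without overlap. Mcpt4 was at 40.4, 33.8, 32.5 and 29.9 RPKM in WT against 56.8, 51.4, 48.2 and 56.8 RPKM in icKO. The lowest icKO library lay above the highest WT library, and Mcpt4 rose by 0.63 ± 0.16 (adjusted p = 0.0232, limma).

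Cpa3, which trims peptides from their carboxyl end, was at 20.6, 15.2, 16.9 and 15.1 RPKM in WT, against 27.9, 27.6, 26.1 and 29.8 RPKM in icKO. The icKO libraries were tightly grouped above WT, and the rise was 0.69 ± 0.17 (adjusted p = 0.0192, limma). Hdc was at 3.19, 2.56, 2.01 and 1.33 RPKM in WT, against 4.63, 5.08, 3.48 and 4.74 RPKM in icKO. The gap between the groups was narrow, from 3.19 to 3.48 RPKM, and Hdc rose by 0.77 ± 0.17 (adjusted p = 0.0121, limma).

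The receptors divided. Mrgprb1 was at 1.79, 1.37, 1.52 and 1.36 RPKM in WT, against 2.09, 2.17, 1.92 and 2.39 RPKM in icKO, a rise of 0.32 ± 0.07 (adjusted p = 0.0146, limma) without overlap. Mrgprb2 was at 3.58, 2.16, 7.38 and 6.20 RPKM in WT against 1.23, 1.48, 2.80 and 1.44 RPKM in icKO. Mrgprb2 fell by 1.02 on the log2 scale (SE 0.25, adjusted p = 0.0199, limma), and icKO library c lay above the library labelled WT b. Ms4a2 was at 0.634 to 0.794 RPKM in WT, against 0.747 to 1.04 RPKM in icKO, overlapping. Fcer1a, listed at 0 in every WT library, was at 0.0210, 0.141, 0.0231 and 0.0424 RPKM in icKO.

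**Figure D2:**
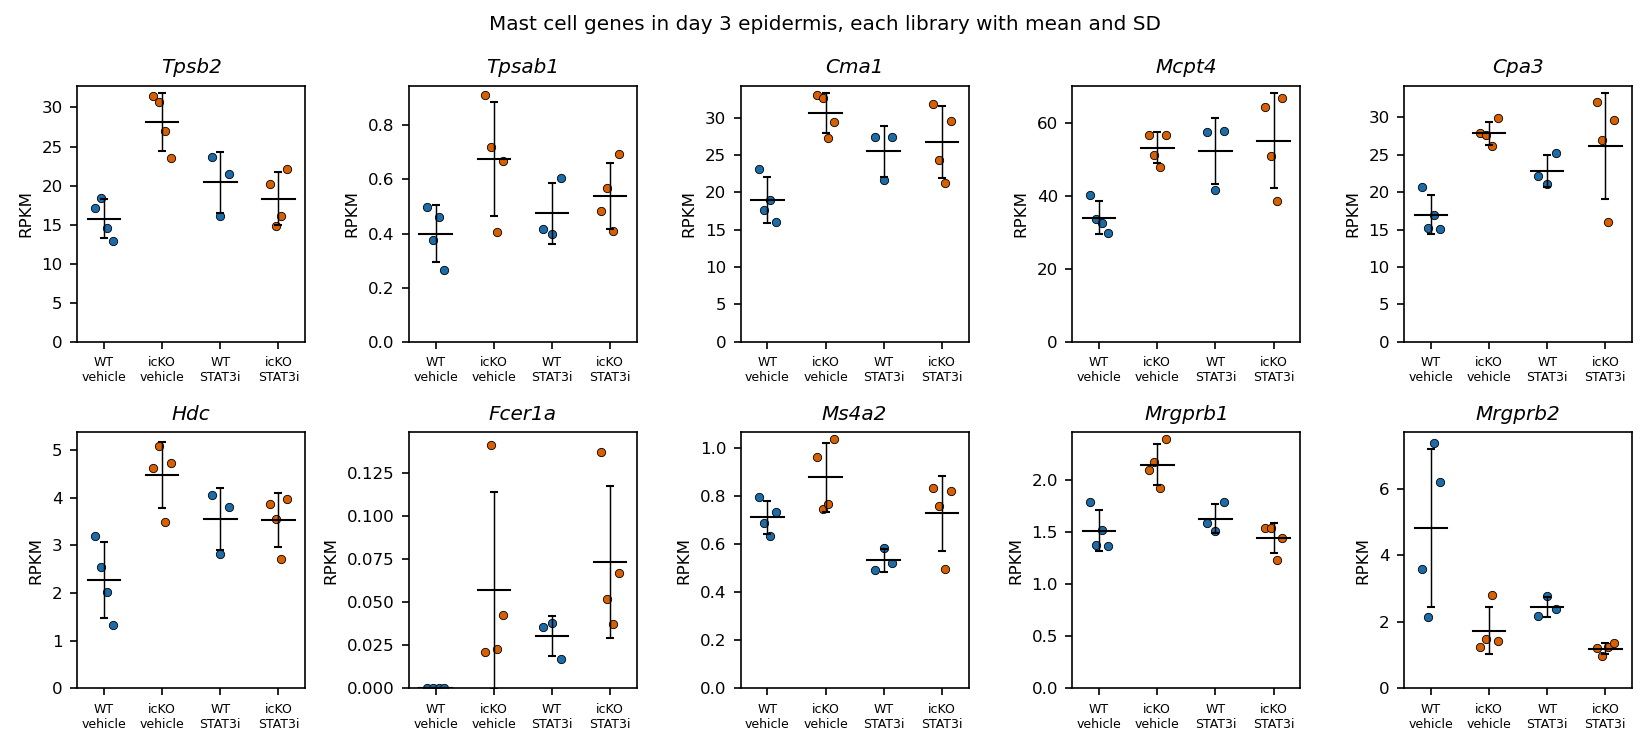
Level of each member in RPKM (y axes, linear and separate for each gene) in the 15 day 3 epidermis libraries, grouped on the x axis by genotype and treatment, with points for libraries, a line for the mean and bars for the SD. In vehicle-treated skin the 6 genes that rose have every icKO point above every WT point, whereas Mrgprb2 has 3 of 4 icKO points below every WT point.

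The calls depended on how closely related libraries and sex were handled. With the closest pair of libraries in each group averaged, 0 of the 13122 genes tested passed, members included (2045 genes had an unadjusted p under 0.05, limma). With a term for sex 1 member passed, Tpsb2, beside 3.01% of all tested genes. The compared groups fitted alone left 4 (Tpsb2, Cma1, Mcpt4 and Cpa3). Leaving out icKO library b left 2 (Tpsb2 and Cma1), and leaving out WT d, icKO a or icKO d each left 4 (Tpsb2, Cma1, Hdc and Mrgprb1). With WT b, whose Dlx3 goes against its label, and icKO c, which held both sex transcripts, left out together, all 7 calls stood. Over all genes the 1194 higher and 485 lower calls became 854 and 1001 after quantile normalization, under which the 7 members kept their calls and directions. The rise of Mrgprb1 was 0.48 and 0.51 with pseudocounts of 0.1 and 0.01.

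Other genes of mast cells were compared through lists in vehicle-treated day 3 epidermis, where 9.12% of all tested genes were higher in icKO. Of 13 further granule genes 6 were tested and 2 rose, Srgn, the core protein of granule proteoglycan (0.81 ± 0.19, adjusted p = 0.0179, limma), and Serpinb1a, a protease inhibitor of leukocytes (0.80 ± 0.23, adjusted p = 0.038, limma). Of 11 genes of mast cell growth and lineage 8 were tested and 3 rose. These were the IL-33 receptor Il1rl1 (0.61 ± 0.16, adjusted p = 0.0251), the cytokine receptor chain Csf2rb (0.68 ± 0.20, adjusted p = 0.038) and Kit (0.37 ± 0.11, adjusted p = 0.0399), all by limma. Kit is shared with melanocytes, and 4 of 6 tested melanocyte genes rose in the same comparison, Kit among them. Of 13 IgE signalling genes, all tested, 2 rose, the phospholipase Plcg2 and the adaptor Lat2. Lipid mediator enzymes of mast cells went both ways by their means in WT and icKO. Lower in icKO were Ptgs1 (46.6 and 32.9 RPKM), Ltc4s (15.3 and 12.4), Alox5 (9.64 and 8.62) and Pla2g4a (7.54 and 6.40). Higher were Alox5ap (41.2 and 58.1 RPKM), Hpgds (10.9 and 12.5) and Ptgs2 (0.327 and 0.667). In the lineage list the mean of Mitf was lower, at 5.41 RPKM in WT and 4.65 RPKM in icKO.

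Signals that act on mast cells were little changed. Of 12 such genes 8 were tested and 1, the chemokine Ccl2, rose (1.19 ± 0.33, adjusted p = 0.0333, limma), beside 9.12% of all tested genes. Kitl was at 4.07 to 5.63 RPKM in WT, against 4.36 to 5.04 RPKM in icKO, and its change of -0.07 ± 0.10 did not pass (adjusted p = 0.641, limma). Il33, an alarmin of epithelium, was at 4.55 to 8.96 RPKM in WT, against 8.13 to 11.1 RPKM in icKO, with a change of 0.45 ± 0.21 that did not pass either (adjusted p = 0.165, limma).

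Markers of other cells moved beside the members. The basophil protease Mcpt8 was at 0, 0.0240, 0 and 0.0488 RPKM in WT, against 0.848, 0.635, 0.621 and 0.805 RPKM in icKO, without overlap and below the filter, while Prss34, another basophil protease, did not exceed 0.0994 RPKM in either group. The summed level of the 6 basophil markers was 3.41 to 4.13 RPKM in WT, against 4.29 to 4.79 RPKM in icKO. Most of this sum was Gata2, which mast cells and endothelium also make. The mean of Gata2 was 2.98 RPKM in WT and 2.68 RPKM in icKO. Of the 7 neutrophil markers 5 were tested and 3 rose (S100a9, S100a8 and Cxcr2), where 9.12% of all tested genes were higher. The sums were 8.61 to 56.7 RPKM in WT, against 73.5 to 357 RPKM in icKO. Nearly all of the icKO sums was S100a8 and S100a9, which keratinocytes can also make. Mpo had a mean of 1.96 RPKM in WT and 0.748 RPKM in icKO, and Elane 0.387 and 0.216 RPKM. Ly6g was listed at 0 in every icKO library. Of the 8 macrophage markers none passed the threshold by limma, with sums of 1102, 1451, 237 and 263 RPKM in WT libraries a to d and 888 to 1110 RPKM in icKO. The WT libraries with low sums, c and d, are those with the highest Mrgprb2 and Mrgprb3, and the part of tissue composition in those levels was not tested. What part basophils or neutrophils had in the rise of Hdc, which they can also make, was not tested.

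Under the STAT3 inhibitor the genotypes did not differ in these genes at the threshold. None of the 7 tested members passed by limma (1 had an unadjusted p under 0.05, Mrgprb2), beside 34% of 13241 tested genes that did. Tpsb2 was at 23.7, 16.1 and 21.5 RPKM in WT, against 20.2, 14.8, 16.2 and 22.1 RPKM in icKO. Mcpt4 was at 57.5, 41.8 and 57.8 RPKM in WT, against 64.5, 51.0, 38.8 and 66.9 RPKM in icKO, and in both genes the groups overlapped. The fitted changes of the 4 proteases, Hdc and Mrgprb1 ran from -0.15 to 0.15, and the 95% intervals of the proteases reached from -0.50 to 0.54.

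Mrgprb2 had the change farthest from 0 of the 7 under the inhibitor. Its level was 2.17, 2.77 and 2.38 RPKM in WT, against 1.20, 0.968, 1.25 and 1.36 RPKM in icKO under the inhibitor. The groups did not overlap (24.9% of tested genes were lower without overlap), but the change of -0.65 ± 0.27 did not pass (adjusted p = 0.0772, limma). It did pass with a pseudocount of 0.1 or 0.01, with the compared groups fitted alone, and with WT b and icKO c left out. Without icKO STAT3i library c, which had the lowest sum of the 4 proteases (92.2 RPKM), Cpa3 was higher past the threshold.

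Within icKO epidermis the inhibitor was accompanied by lower Tpsb2 and Mrgprb1. These were 2 of 7 tested members, against 5.56% of 13074 tested genes in either direction and 2.75% as lower. Both lay lower without overlap, as did 11.2% of tested genes. Tpsb2 fell by 0.60 on the log2 scale (SE 0.15, adjusted p = 0.0387, limma), from 23.5 to 31.4 RPKM with vehicle to 14.8 to 22.1 RPKM with inhibitor, without overlap. Mrgprb1 was at 1.54, 1.54, 1.23 and 1.44 RPKM with the inhibitor, below every vehicle-treated icKO library, and fell by 0.37 (SE 0.07, adjusted p = 0.0193, limma).

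The other proteases overlapped between the same groups. Mcpt4 changed by 0.02 ± 0.16 (adjusted p = 0.946, limma), Cma1 by -0.20 ± 0.13 (adjusted p = 0.376) and Cpa3 by -0.13 ± 0.17 (adjusted p = 0.664), none past the threshold. Tpsb2 accordingly made up 12.7 to 17.5% of the summed proteases with the inhibitor and 16.8 to 21.6% with vehicle in icKO skin. The calls were not stable: with closest pairs averaged, or without icKO a, icKO b or icKO STAT3i d, neither gene passed, and with a sex term, without the filter, or without icKO c (alone or with WT b), icKO STAT3i a, b or c, Mrgprb1 alone passed. The fall of Mrgprb1 was 0.57 on the log2 scale (-0.57) with a pseudocount of 0.01.

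Within WT epidermis the inhibitor was accompanied by higher Mcpt4. It was the only one of 7 tested members past the threshold (0.60 ± 0.17, adjusted p = 0.0296, limma), beside 18.8% of 13211 tested genes, 10.9% as higher. Cma1 changed by 0.41 ± 0.14 (adjusted p = 0.0612), Hdc by 0.50 ± 0.18 (adjusted p = 0.0643) and Cpa3 by 0.41 ± 0.18 (adjusted p = 0.12, all limma). Every WT STAT3i library was above every vehicle-treated WT library in Mcpt4 and Cpa3, as in 14.8% of tested genes. Among members below the filter Fcer1a was also above, at 0.0354, 0.0381 and 0.0169 RPKM against 0, and Ms4a2 was below without overlap, at 0.490, 0.583 and 0.523 RPKM against 0.634 to 0.794 RPKM. Tpsb2 and Cma1 overlapped, through library b of the inhibitor group.

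In the same comparison 7 of 8 macrophage markers rose, with sums of 237 to 1451 RPKM with vehicle and 1524 to 1811 RPKM with the inhibitor, and all 6 markers of Langerhans and dendritic cells rose. The part of these cells in the Mcpt4 level was not tested. Mcpt4 did not pass without WT c, WT d, WT STAT3i a or WT STAT3i c, with closest pairs averaged, or with the compared groups alone. Without WT a 3 members passed (Cma1, Hdc and Mcpt4), without WT b, alone or with icKO c, 3 (Hdc, Mcpt4 and the fall of Mrgprb2) and without WT STAT3i b 2 (Cma1 and Mcpt4).

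The difference between the genotype effects with and without inhibitor was tested directly. Of 7 tested members 1 passed, Tpsb2, whose icKO effect was lower by 0.95 on the log2 scale with the inhibitor (SE 0.22, adjusted p = 0.0471, limma), against 2.14% of 13563 tested genes, 1.41% as lower. Mrgprb1 (-0.43 ± 0.11, adjusted p = 0.0514), Hdc (-0.77 ± 0.24, adjusted p = 0.0843) and Cma1 (-0.61 ± 0.20, adjusted p = 0.0893) came next by limma. The values for the proteases, Hdc and Mrgprb1 were all below 0, and Mrgprb2 had 0.38 ± 0.37 (adjusted p = 0.561). The comparison shares its vehicle libraries with those above.

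That call too was close to the threshold. It was lost with a sex term, with closest pairs averaged, with a pseudocount of 0.01 and without the filter. It was also lost in 12 of the 15 fits that left out 1 library, the exceptions being WT a (4 members: Tpsb2, Mrgprb1, Hdc and Cma1), WT b (2: Tpsb2 and Mrgprb1) and icKO d (1). With WT b and icKO c left out together 4 passed, Tpsb2, Hdc and Mrgprb1 as lower and Mrgprb2 as higher. Sex and genotype cannot be told apart within the inhibitor groups.

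In day 3 dermis no member passed, nor did any of the 13017 tested genes (0% by limma, with 1643 at an unadjusted p under 0.05, none of them among the 5 members tested). The WT libraries held 56.3, 60.2 and 56.6 RPKM of Mcpt4, and those labelled icKO held 20.02, 40.8 and 71.4 RPKM. The icKO libraries thus spread from below to above the WT range. Tpsb2 behaved alike, with 23.8, 34.6 and 27.2 RPKM in WT, against 12.2, 20.7 and 28.9 RPKM in icKO, and its change was -0.52 ± 0.32 (adjusted p = 0.44, limma).

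The other members tested there had icKO libraries in the same order, a lowest and c highest. Cma1 was at 30.0, 33.5 and 28.9 RPKM in WT, against 10.4, 19.7 and 40.1 RPKM in icKO. Cpa3 was at 18.1, 22.1 and 19.1 RPKM in WT, against 6.20, 12.8 and 22.5 RPKM in icKO. Hdc was at 6.56, 3.89 and 3.74 RPKM in WT, against 1.36, 2.77 and 6.27 RPKM in icKO. In all 3 genes the icKO libraries a and b were below every WT library and icKO c was at or above the middle of WT.

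These are the 2 libraries with Dlx3 over 60 RPKM, and their Acta1 was 1084 and 1409 RPKM against 3399 RPKM in icKO c and 3740 to 5383 RPKM in WT. WT library b, with hair shaft genes too, had the highest of the WT levels in all 4 proteases. The part of tissue composition was not tested. Without icKO c, Cma1 was lower past the threshold and no other member was, beside 23.8% of 13391 tested genes, in a comparison of WT with the pair of libraries that go against their label. Of the summed proteases in the 6 libraries Mcpt4 made up 40.0 to 43.9%, Cma1 20.9 to 24.6%, Tpsb2 17.7 to 24.9% and Cpa3 12.7 to 14.7%. The receptors and low members (Mrgprb1, Mrgprb2, Ms4a2, Tpsab1 and Fcer1a) did not pass the filter there, and none was above 1.91 RPKM.

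Week 1 WT epidermis was almost free of the granule genes. Mcpt4 was at 0.276 and 0.325 RPKM, Cma1 at 0.181 and 0.123, Cpa3 at 0.161 and 0.196, and Tpsb2 at 0.126 and 0.0522 RPKM. Tpsab1 and Fcer1a were listed at 0. Hdc stood at 0.0977 and 0.111 RPKM. Mrgprb2, by contrast, was at 10.4 and 13.2 RPKM, which equals 1399% and 1891% of the summed proteases in the same libraries. These are the highest listed levels of this receptor in the series, across tables that were normalized separately.

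**Figure D3:**
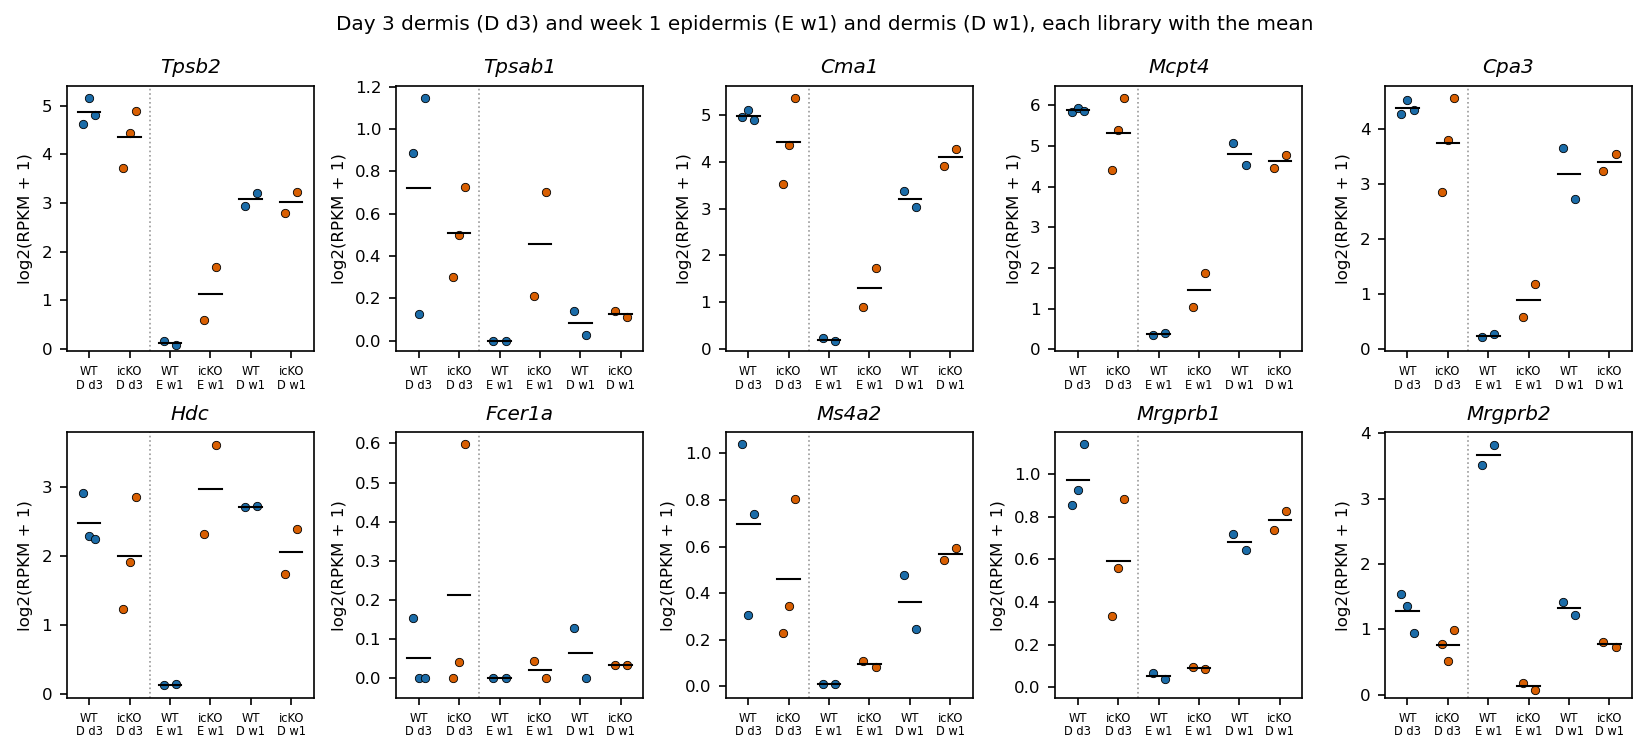
Level of each member as log2(RPKM + 1) (y axes, separate for each gene) in day 3 dermis, left of the dotted line, and in week 1 epidermis and dermis, right of it, with points for libraries and a line for the mean; the tables were normalized separately. In week 1 epidermis the icKO points of the proteases and Hdc lie above the WT points, and those of Mrgprb2 lie near 0 below WT at 10.4 and 13.2 RPKM.

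In week 1 icKO epidermis Hdc and Mcpt4 rose and Mrgprb2 fell. These were the 3 members that passed the filter, each only through the group where it is high, so that they had to differ and their count is a description. Beside them 55.3% of 11796 tested genes passed the threshold in that comparison, 11.7% as higher and 43.6% as lower. The median over all genes was -0.50, so changes there are against a general shift: 1377 genes were higher and 5147 lower, which became 2267 and 2724 after quantile normalization. The 3 calls held after that normalization. The 3 calls were not stable when 1 library was left out, with the lone library of a group assumed to vary like the other group. The changes then ran from 2.18 to 3.47 for Hdc, 0.67 to 1.49 for Mcpt4 and -3.69 to -3.38 for Mrgprb2. Without icKO a, Cma1, Cpa3 and Tpsb2 were tested too. They passed the filter only through icKO b, where they are high, so their higher level there is a description.

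Hdc was at 3.997 and 11.3 RPKM in icKO, far above both WT libraries, and rose by 2.83 ± 0.43 (adjusted p = 0.00613, limma). Mcpt4 was at 1.06 and 2.64 RPKM and rose by 1.08 ± 0.29 (adjusted p = 0.0284, limma). With a pseudocount of 0.1 these rises were 5.06 and 2.16, and the rise of Mcpt4 was 0.67 without icKO library b. The proportions differed from mast cell rich skin: Hdc equalled 135 and 134% of the summed proteases in these 2 libraries, against 1.80 to 3.57% in day 3 epidermis and 4.71 to 12.99% in week 1 dermis.

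The untested proteases also lay above WT. Cma1 was at 0.877 and 2.30 RPKM, Cpa3 at 0.498 and 1.25 RPKM, and Tpsb2 at 0.520 and 2.20 RPKM in icKO. Tpsab1 was at 0.158 and 0.629 RPKM. Counting untested members, 8 of the 10 were higher in icKO without overlap and 1, Mrgprb2, lower. Of the 3 tested members 2 were higher and 1 lower without overlap, where 21.1% of tested genes were higher and 60.6% lower. The untested members have no such share beside them. Between the icKO libraries, b held more of every protease than a.

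Some markers of neutrophils, macrophages, adipocytes and fibroblasts were higher in the same libraries. Those of Langerhans and dendritic cells and of T cells mostly had lower means there. The mean of Cd207 was 43.8 RPKM in WT and 1.34 RPKM in icKO, and that of Cd74 328 and 57.5 RPKM. Cd3e had means of 9.96 and 1.69 RPKM and Thy1 of 53.0 and 6.67 RPKM. Ccr7, Cd4 and Cd8a had higher means in icKO, each under 1 RPKM. The 6 of 7 neutrophil markers in the table summed to 18442 and 12402 RPKM in icKO and to 56.8 and 29.8 RPKM in WT, nearly all of it S100a8 and S100a9, which keratinocytes can also make. Cxcr2, a neutrophil receptor, was at 9.72 and 9.32 RPKM in icKO and at 1.51 and 2.55 RPKM in WT, while Elane and Mpo did not exceed 0.522 RPKM in any of the 4 libraries. The 7 macrophage markers in the table summed to 59.8 and 243 RPKM in icKO against 16.1 and 13.4 RPKM in WT, with 5 of 7 higher past the threshold, while Csf1r went the other way, at 1.74 and 3.77 RPKM in icKO and 6.37 and 4.75 RPKM in WT. The 6 adipocyte markers summed to 183.7 and 40.7 RPKM in icKO and to 3.79 and 7.01 RPKM in WT, higher in icKO a than in b, unlike the proteases. Most of the icKO sums was Fabp4, at 37.6 to 168.5 RPKM. In icKO, Adipoq was at 1.22 to 4.95 RPKM, Plin1 did not exceed 0.454 RPKM and Lep was listed at 0. Of the fibroblast markers Dcn was higher, at 27.1 and 78.0 RPKM in icKO and 10.5 and 18 RPKM in WT, and the collagens Col1a1, Col1a2 and Col3a1 fell. Mcpt8 was at 0.525 and 0.481 RPKM in icKO and at 0.0233 and 0.0226 RPKM in WT. The part of these cells in the levels of Hdc and the proteases was not tested.

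Among 12 signals of the mast cell surroundings 8 were tested in the same epidermis, 5 rose and 2 fell, the chemokines Cx3cl1 and Cxcl12, where 11.7% of all tested genes were higher and 43.6% lower. Il33 was at 7.37 and 10.7 RPKM in WT, against 79.6 and 28.9 RPKM in icKO (2.31 ± 0.50, adjusted p = 0.0153, limma). Kitl was at 1.42 and 2.09 RPKM in WT, against 3.54 and 4.76 RPKM in icKO (0.90 ± 0.22, adjusted p = 0.0211). Tslp, an epithelial cytokine, rose by 2.43 ± 0.41 (adjusted p = 0.00797, limma). Kit was at 0.457 and 0.699 RPKM in WT, against 0.401 and 0.679 RPKM in icKO, below the filter and overlapping.

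Mrgprb2 was at 0.136 and 0.0555 RPKM in week 1 icKO epidermis, and fell by 3.54 (SE 0.18, adjusted p = 0.00132, limma), or by 5.95 (a log2 change of -5.95) with a pseudocount of 0.1. Both icKO libraries were far below WT. Its neighbour Mrgprb3, chosen for comparison after its values were seen, lies 84.7 kb away (chr7:48642803-48643811) with 77.9% identity over 984 aligned bases and a longest shared run of 23 bases. Mrgprb3 was at 25 and 26.8 RPKM in WT, against 0.268 and 0.644 RPKM in icKO epidermis at week 1. In vehicle-treated day 3 epidermis it was at 6.64, 2.42, 12.1 and 13.97 RPKM in WT, against 1.17, 1.18, 4.64 and 2.18 RPKM in icKO. Both receptors were lowest in the same WT library, b, and highest in the same icKO library, c. Mrgprb1, on the other side, stayed at 0.0272 to 0.0677 RPKM in all 4 week 1 epidermis libraries.

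**Figure D4:**
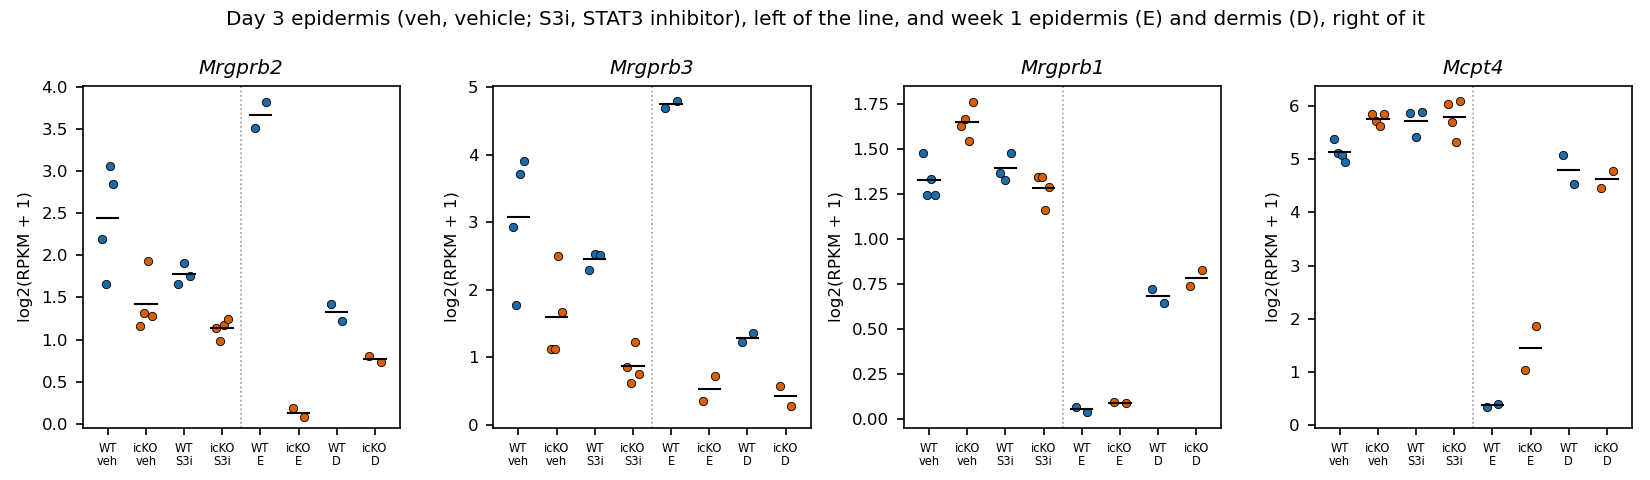
Levels of Mrgprb2, its neighbours Mrgprb3 and Mrgprb1, and the chymase Mcpt4 as log2(RPKM + 1) (y axes, separate for each gene), in day 3 epidermis, left of the dotted line, and week 1 tissues, right of it, with points for libraries and lines for means. The listed levels of Mrgprb2 and Mrgprb3 are highest in week 1 WT epidermis (10.4 and 13.2 RPKM for Mrgprb2), where Mcpt4 is at 0.276 and 0.325 RPKM. The tables of day 3 and week 1 were normalized separately.

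In week 1 dermis 6 members were tested; Cma1 rose and Mrgprb2 fell, beside 49.3% of 12744 tested genes, 8.41% as higher and 40.9% as lower. The median over all genes was -0.38, with 1072 genes higher and 5210 lower, and 2193 and 2293 after quantile normalization, under which Cma1 stayed past the threshold and Mrgprb2 did not. Cma1 was at 9.34 and 7.23 RPKM in WT, against 14.1 and 18.5 RPKM in icKO (0.89 ± 0.19, adjusted p = 0.0107, limma). Mrgprb2 was at 1.68 and 1.34 RPKM in WT, against 0.750 and 0.665 RPKM in icKO (-0.55 ± 0.15, adjusted p = 0.0225, limma). Mrgprb2 passed the filter only through WT, where it is high, so its call is a description. In neither gene did the groups overlap, where 16.5% of tested genes were higher and 60.8% lower without overlap. With a pseudocount of 0.1 the change of Mrgprb2 was -0.99.

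Cma1 moved away from Mcpt4, its neighbour on chromosome 14. Mcpt4 was at 32.7 and 22.1 RPKM in WT, against 21 and 26.4 RPKM in icKO, overlapping (-0.18 ± 0.22, adjusted p = 0.507, limma). Cma1 made up 15.5 and 16.8% of the 4 proteases in WT and 28.4 and 28.9% in icKO. Mcpt4 made up 54.3 and 51.2% in WT and 42.4 and 41.4% in icKO. Tpsb2 was at 6.73 and 8.24 RPKM in WT, against 5.99 and 8.44 RPKM in icKO, and Cpa3 at 11.5 and 5.59 RPKM in WT, against 8.42 and 10.6 RPKM in icKO, neither past the threshold.

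Hdc was lower in icKO dermis without passing, at 5.52 and 5.60 RPKM in WT, against 2.33 and 4.23 RPKM in icKO (-0.65 ± 0.23, adjusted p = 0.0545, limma). Without the filter no member passed. Without icKO a Cma1 alone passed, without icKO b Hdc alone (lower), and without WT a Cma1 and Cpa3 (both higher). Of 11 growth and lineage genes 9 were tested and 6 fell, among them Csf2rb (-1.59 ± 0.15, adjusted p = 0.00196), the transcription factor Gata2 (-1.25 ± 0.15, adjusted p = 0.00212) and Kit (-0.54 ± 0.17, adjusted p = 0.0359, all limma). Kitl changed by -0.62 ± 0.22 (adjusted p = 0.0548) and did not pass. All 6 endothelial markers fell in the same comparison, and Gata2 is also made by endothelium. Beside these counts, 40.9% of all tested genes were lower there, with a median change of -0.38 over all tested genes. Lipid mediator enzymes of mast cells went both ways in this dermis by their means in WT and icKO. Higher in icKO were Alox5ap (57.7 and 214 RPKM), Hpgds (3.19 and 7.51), Ltc4s (6.93 and 15.03) and Alox5 (5.47 and 6.92). Lower were Ptgs1 (13.9 and 6.41 RPKM), Pla2g4a (4.57 and 2.33) and Ptgs2 (0.752 and 0.402).

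**Figure D5:**
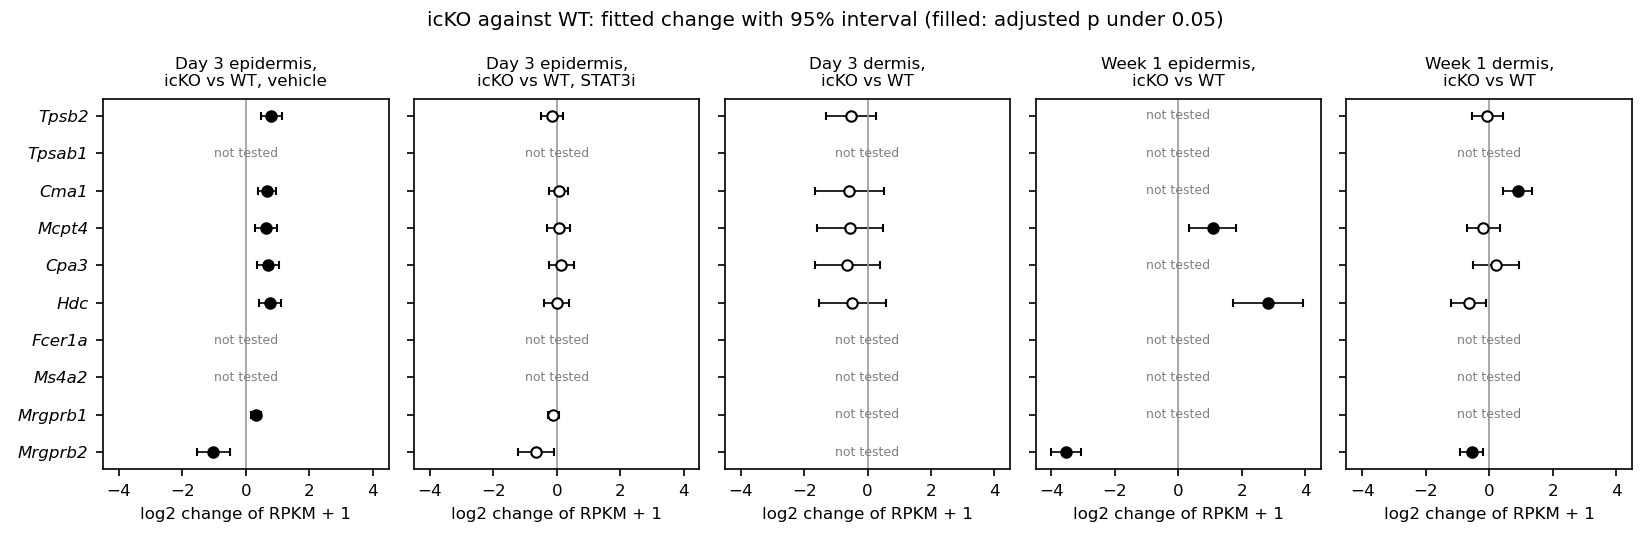
Fitted log2 change of RPKM + 1, icKO against WT (x axes, linear), for each member (y axis) in 5 comparisons, with 95% intervals; filled points passed an adjusted p of 0.05 and members below the filter are marked as not tested. In vehicle-treated day 3 epidermis 6 points lie above 0 and Mrgprb2 below it, and Mrgprb2 lies below 0 in all 4 comparisons in which it was tested. In both week 1 tissues Mrgprb2 passed the filter only through WT, where it is high.

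WT dermis held far more of the granule genes than WT epidermis at week 1, with tissue and tamoxifen route confounded. Of 6 tested members 5 were higher in dermis and Mrgprb2 was lower; those 5 passed the filter only through dermis, so their count is a description, beside 59.3% of 13108 tested genes past the threshold, 33.9% as higher in dermis and 25.5% as lower. Mcpt4 differed by 4.42 ± 0.30 (adjusted p = 1.54e-05), Cma1 by 3.00 ± 0.28 (adjusted p = 7.27e-05), Tpsb2 by 2.96 ± 0.33 (adjusted p = 0.000187) and Cpa3 by 2.95 ± 0.32 (adjusted p = 0.000157), all by limma on log2(RPKM + 1), which understates the change of genes near 0 in epidermis (5.05 for Cma1, 5.35 for Tpsb2 and 4.87 for Cpa3 with a pseudocount of 0.1). Hdc differed by 2.57 ± 0.39 (adjusted p = 0.000954, limma), or by 4.80 with that pseudocount. Mrgprb2 was lower in dermis by 2.34 on the log2 scale (-2.34 ± 0.15, adjusted p = 1.31e-05, limma). All 7 fibroblast and all 6 endothelial markers were higher in the same dermis.

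The icKO effect at week 1 differed between tissues for Hdc and Mrgprb2, 2 of 6 tested members, against 32.5% of 13539 tested genes. The effect on Hdc was lower in dermis than in epidermis (-3.48 ± 0.56, adjusted p = 0.0047, limma), where it had the opposite sign. For Mrgprb2 the effect in dermis was higher (2.98 ± 0.22, adjusted p = 0.00038, limma), since the fall was smaller there. Mcpt4 (-1.26 ± 0.42, adjusted p = 0.0559) and Tpsb2 (-1.07 ± 0.47, adjusted p = 0.118) did not pass. Both did so, as lower in dermis, with a pseudocount of 0.1 and without icKO epidermis library a, and with Cma1 at a pseudocount of 0.01. With a pseudocount of 0.1 the differences of Hdc and Mrgprb2 were -5.87 and 4.96.

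Genes whose levels ran most like the members were sought among 13556 genes tested in day 3 epidermis. The measure was Pearson's r over the 15 libraries between log2(RPKM + 1) of a gene and the mean of the standardised members, given with no p, since the libraries share groups and tissue composition. The 8 highest were Tnn (0.91), Cdh11 (0.90), Serpinb6d (0.90), Dhx29 (0.89), Clic4 (0.89), Adam17 (0.89), Mfsd14a (0.89) and Pvr (0.88). Spearman's rho was 0.91 for Tnn, an extracellular matrix glycoprotein, and 0.90 for Cdh11, a cadherin of mesenchymal cells. In the 8 week 1 libraries r was 0.77 for Tnn and 0.91 for Cdh11, and in the 6 day 3 dermis libraries 0.59 and 0.21. Serpinb6d had 0.51 in both other tables, whereas Dhx29 had -0.87 in day 3 dermis and -0.37 at week 1, and Adam17 had 0.97 and -0.76.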

How the data were processed

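RNA of 29 libraries was sequenced. Per the file headers, the authors mapped reads to mm10 and calculated RPKM in Partek, per gene for day 3 epidermis and per transcript for the other tables; TopHat2 2.1.0 is named in the submitters' processing notes. Transcript RPKM were summed per gene here, after 832 duplicate lines of the day 3 dermis table were dropped. The authors' deposited ANOVA tables gave ratios and p-values, of which only single values are quoted; the headers of the week 1 ANOVA tables name mm9. Depth was read from the deposited counts of alignments or reads. For 2 of 29 samples the genotype field differs from the title, and titles were followed.

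The members and lists were chosen with earlier results of these data known. Tests used limma 3.58.1 in R 4.3.3 (trend, log2(RPKM + 1)) on all 15 libraries for day 3 epidermis, on the compared libraries for genotype in day 3 dermis and in each week 1 tissue, and on all 8 week 1 libraries between tissues, with genes at 1 RPKM or more in at least as many compared libraries as the smaller group has, and Benjamini-Hochberg adjustment over all tested genes at 0.05. RPKM keep no read counts, so no counting intervals were made. The scripts were tested on simulated data. All 10 members were named, with Kit, Kitl, Il33, Mcpt8, Dlx3, up to 4 called genes per list and the 8 genes most like the members. Alternatives were the pseudocount, filter, quantile normalization, no intensity trend, a sex term, compared groups alone, closest libraries averaged, and each library left out. Leaving out WT b and icKO c together, and the likeness to Mrgprb2 alone, were chosen after seeing the data. Sequences were handled with Biopython 1.88, tables with pandas 2.3.3 and figures with matplotlib 3.10.9. The result of 1 listed gene is not reported here.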

Additional observations from a re-analysis of the deposited data

Results flagged for a closer look

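Among 29 member and group combinations of 4 libraries, 1 held a library far from the others: Mrgprb2 in vehicle-treated day 3 icKO epidermis, where library c was highest at 2.80 RPKM against 1.23 to 1.48 RPKM in the other libraries. Chance gives about 1 such library in 20 groups.

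The effect of genotype on Tpsb2 in day 3 epidermis differed between inhibitor and vehicle by -0.95 on the log2 scale, by the interaction term. At week 1 the effect of genotype differed between dermis and epidermis by -3.48 for Hdc and by 2.98 for Mrgprb2, with the route of tamoxifen differing as well.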

How the results depend on the processing

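No paired analysis was possible because the columns carry no replicate numbers. The 24 member values past the threshold kept their sign under all 341 alternatives run. These values were picked for passing in the same data. Some passed the filter only through the group where they are high, so the kept signs are a description. Counts of members past the threshold moved as follows. For icKO against WT in vehicle-treated epidermis (7) they were 0 with closest pairs averaged, 4 with compared groups only and 1 with a sex term; for the inhibitor in icKO (2), 1, 0, 1 and 1 with WT b and icKO c out, closest pairs averaged, no filter and a sex term; for the inhibitor in WT (1), 3, 0 and 0 with WT b and icKO c out, closest pairs averaged and compared groups only. Under the inhibitor (0), icKO against WT gave 1 with WT b and icKO c out, compared groups only and pseudocounts of 0.1 and 0.01. The day 3 interaction (1) gave 4 with WT b and icKO c out and 0 with closest pairs averaged, no filter, a pseudocount of 0.01 and a sex term. Week 1 dermis (2) gave 0 with no filter and 1 with quantile normalization, and the week 1 interaction (2) gave 5 and 4 with pseudocounts of 0.01 and 0.1. The causes were not tested.

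With each library left out in turn the counts ran from 2 to 7 for icKO against WT with vehicle, 0 to 1 with inhibitor, 0 to 2 and 0 to 3 for the inhibitor in icKO and WT, 0 to 4 for the day 3 interaction, 0 to 1 in day 3 dermis, 0 to 6 in week 1 epidermis, 1 to 2 in week 1 dermis, 6 to 6 between WT tissues and 2 to 4 for the week 1 interaction. With 1 library left in a group, it was assumed to vary like the others. In week 1 epidermis without icKO a, Cma1, Cpa3 and Tpsb2 passed the filter only through icKO b, where they are high.

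The sign turned only in values that had not passed. With inhibitor, icKO against WT, Cma1 turned to -0.025 with quantile normalization and -0.054 with a sex term, Hdc to 0.012 with closest pairs averaged and 0.012 with quantile normalization, and Mcpt4 to -0.053 with quantile normalization. For the inhibitor in icKO, Mcpt4 turned to -0.023 with WT b and icKO c out, -0.061 with closest pairs averaged and -0.013 with quantile normalization. In week 1 dermis quantile normalization turned Mcpt4 to 0.11 and Tpsb2 to 0.42. Leaving out a library gave, with inhibitor, Cma1 -0.050 to 0.16, Hdc -0.13 to 0.085 and Mcpt4 -0.092 to 0.22; for the inhibitor in icKO, Cpa3 -0.24 to 0.079 and Mcpt4 -0.077 to 0.18; in week 1 dermis, Cpa3 -0.26 to 0.66, Mcpt4 -0.46 to 0.089 and Tpsb2 -0.27 to 0.16; and for the week 1 interaction, Cma1 -0.63 to 0.19 and Cpa3 -0.90 to 0.025. Over all genes, icKO against WT with vehicle called 1679 genes, 106 with compared groups only, 394 with a sex term and 0 with closest pairs averaged. Levels near 0 RPKM limit Fcer1a, Tpsab1 and all proteases of week 1 epidermis.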

Other observations

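Mrgprb2 ran with other genes than the remaining members. Over the 15 day 3 epidermis libraries, Pearson's r of log2(RPKM + 1) with Mrgprb2 was 0.99 for Ptpn21, 0.99 for Slc24a3, 0.98 for Col4a6, 0.98 for Gldc and 0.98 for Abca5, all chosen after their values were seen. In the 8 week 1 libraries r was 0.97, 0.98, 0.98, 0.98 and 1.00 in the same order. Mrgprb3 had 0.96 (rank 50), Mrgprb1 -0.22 and Mcpt4 -0.72. The libraries share groups and tissue composition, so these are descriptions.

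The basophil protease Mcpt8 stood at 1.67, 3.07 and 3.31 RPKM in day 3 WT dermis and at 0.123, 0.844 and 3.32 RPKM in the libraries labelled icKO, the same order of icKO libraries as in the proteases. In day 3 epidermis with the inhibitor its WT levels were 0.0650, 0.117 and 0 RPKM, against 1.27, 0.403, 0.480 and 1.54 RPKM in the icKO libraries, without overlap.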
